A study of Mus musculus with 4 samples.

Results

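The genes described here encode enzymes that hydroxylate proline and lysine residues of collagen chains in the endoplasmic reticulum, together with the subunits that belong to these enzymes. They were P4ha1, P4ha2 and P4hb of the prolyl 4-hydroxylase, P3h1 and P3h4 of the prolyl 3-hydroxylase family, and the lysyl hydroxylase genes Plod1, Plod2 and Plod3. Every probe set whose only gene name in the array annotation was one of these 8 symbols was taken, which gave 10 probe sets for 7 of the 8 genes, out of 28898 probe sets with a single name for 17097 genes. No probe set carried P4ha1 as its only name, and that gene is not analysed here. A further 3 probe sets that named Plod1 together with another gene were left out by the same rule.

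The series holds 4 one-colour arrays of thymocytes that carry both coreceptors, CD4 and CD8, a stage of T cell maturation called double-positive. Flow cytometry was used to sort them from thymuses of untreated C57BL/6 mice. The labels assign 2 arrays to wild-type (WT) mice and 2 to hCD2-iCre x Gfi1fl/fl mice, in which a recombinase under human CD2 regulatory sequences acts on a floxed Gfi1 gene in lymphoid cells. Ages are not given in the sources used here, nor whether the replicates came from separate animals, so the spread between arrays may be technical. The wild-type mice are not described as carrying the recombinase, so effects of the recombinase and of the floxed gene cannot be told apart. Gfi1, a zinc-finger repressor, was higher on the arrays labelled as knockout (11.47 and 11.32 against 10.17 and 10.08), and where its probe set lies relative to the floxed part is not given. Foxo1, the other factor in the study's title, lay below the medians and differed by -0.13 (limma, adjusted p = 0.892). All directions below are therefore between arrays by their labels. Values are log2 RMA signals, a background-corrected and quantile-normalised summary of each probe set, so a log2 difference of 1 is a change by a factor of 2. The array medians lay between 3.53 and 3.55 and the lower quartiles between 2.97 and 3.02, and the number of arrays limits the precision. All 16 measured markers of double-positive thymocytes had a signal above the median on at least 1 array, with Cd8a at 12.48 and 12.78 on the wild-type arrays and 12.61 and 12.56 on those labelled as knockout.

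Collagen hydroxylation takes place on newly made chains before the triple helix closes. Prolyl 4-hydroxylase joins a catalytic alpha subunit, encoded by P4ha1, P4ha2 or P4ha3, to the beta subunit P4hb, which is also the common protein disulfide isomerase of the endoplasmic reticulum, and its product, 4-hydroxyproline, stabilises the helix. Prolyl 3-hydroxylases modify few sites and work with the chaperones Crtap and cyclophilin B, while lysyl hydroxylases prepare sites for sugar attachment and for cross-links between collagen molecules. The enzymes depend on iron, 2-oxoglutarate, oxygen and ascorbate, and fibroblasts and other matrix-producing cells, not lymphocytes, are their best known source.

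Promoter sequence was available from RefSeq (build GRCm38.p6) for 6 of the 8 genes, and the 250 bases before the annotated start are shown for P4ha2, whose signal was higher on the arrays labelled as knockout, for its partner subunit P4hb, whose groups overlapped, and for Pdlim4 and Jup, the called neighbours of P4ha2 and P3h4. P3h4 and Plod2 had no entry. Capitals mark each ACGTG or GCGTG on either strand, the core of the element bound by hypoxia-inducible factors. The P4ha2 window lies at chr11:54100674-54100923 on the plus strand, P4hb at chr11:120573254-120573503, Pdlim4 at chr11:54069018-54069267 and Jup at chr11:100397791-100398040, these 3 on the minus strand and written 5′ to 3′ along the gene.
P4ha2: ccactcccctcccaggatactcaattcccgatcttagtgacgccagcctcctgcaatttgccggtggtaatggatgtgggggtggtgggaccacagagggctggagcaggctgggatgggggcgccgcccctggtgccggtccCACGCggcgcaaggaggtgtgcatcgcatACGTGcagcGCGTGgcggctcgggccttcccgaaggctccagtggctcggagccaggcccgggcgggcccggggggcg
P4hb: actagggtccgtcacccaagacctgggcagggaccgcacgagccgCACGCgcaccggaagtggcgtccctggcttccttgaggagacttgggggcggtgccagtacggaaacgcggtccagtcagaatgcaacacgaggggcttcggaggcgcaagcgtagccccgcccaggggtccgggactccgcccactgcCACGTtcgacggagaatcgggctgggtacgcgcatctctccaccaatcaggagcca
Pdlim4: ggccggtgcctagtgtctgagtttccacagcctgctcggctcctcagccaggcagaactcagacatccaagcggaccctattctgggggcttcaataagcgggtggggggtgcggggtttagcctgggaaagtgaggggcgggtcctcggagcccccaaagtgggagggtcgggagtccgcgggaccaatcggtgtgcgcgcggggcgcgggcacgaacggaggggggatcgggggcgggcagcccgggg
Jup: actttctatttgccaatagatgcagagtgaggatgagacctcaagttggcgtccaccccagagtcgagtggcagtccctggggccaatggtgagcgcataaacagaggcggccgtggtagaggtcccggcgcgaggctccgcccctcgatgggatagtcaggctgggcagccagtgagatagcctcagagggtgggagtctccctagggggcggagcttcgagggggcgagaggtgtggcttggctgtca

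The P4ha2 window held 3 such cores, 107, 78 and 69 bases before the start, and the P4hb window 2, at 205 and 56 bases. All 6 hydroxylase genes in the table held the core: Plod3 at 4 places, P4ha1 at 3, P3h1 at 2 in each of its 2 windows and Plod1 at 1. The windows of Pdlim4 and Jup held none. Of all 32851 promoter windows of this length in the table, 38.6% held at least 1 of these letters and 6.58% held 3 or more. The short core AATC of Gfi1 binding sites, searched on both strands, was found in 69.0% of all windows. It occurred once in that of Pdlim4 (63 bases before the start), at 2 places in that of P4hb, and not in those of P4ha2 and Jup. Of the other hydroxylase genes, P4ha1 held it at 1 place and the 2 windows of P3h1 at 2 and 3. Plod1 and Plod3 did not hold it. The forkhead motif TGTTTAC, which FOXO factors can bind, was found in 3.17% of all windows and in none of those of the hydroxylase genes. These are matches of letters in one window and are not binding sites.

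The hydroxylase genes did not move as a group. On the arrays labelled as knockout P4ha2 was 8.39-fold higher and P3h4 9.12-fold lower than on the wild-type arrays, and the other 5 measured genes differed by between -0.33 and 0.38 on the log2 scale. The median difference of the 7 genes was 0.09, beside -0.02 for all 17097 genes. With limma over all genes and a threshold of 0.05 on the p-value after Benjamini-Hochberg adjustment, 2 of the 7 were called, 1 in each direction, beside 1.11% of all genes (0.942% higher and 0.17% lower). By probe sets, 2 of the 10 were called, beside 0.766% of all probe sets. The set was chosen by the log2 differences between these same arrays, so the values describe the genes and no test of them is read. In these bulk samples, fewer cells of a type and less RNA per cell cannot be told apart.

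Among the prolyl 4-hydroxylase subunits, P4ha2, a catalytic alpha subunit gene, gave 3.63 and 3.49 on wild-type arrays 1 and 2 and 6.17 and 7.09 on knockout arrays 1 and 2. The wild-type values lay close to the array medians, and both arrays labelled as knockout stood clearly above them, with knockout 2 the higher. The log2 difference was 3.07 ± 0.33 (SE, n = 2 per label), 3.34 times the gap between the 2 knockout arrays. P4hb, the beta subunit, was bright on all arrays, with 9.87 and 9.49 on the wild-type and 9.81 and 9.72 on the knockout arrays. Its groups overlapped, with a difference of 0.09 ± 0.19 (SE). P4ha3, the further alpha subunit gene outside the set, was below the array medians throughout, at 2.59 and 2.61 against 2.94 and 2.77 (difference 0.26; limma, adjusted p = 0.368). The P4ha2 groups were thus apart by more than the spread of either label, and the P4hb values of the knockout arrays lay between those of the wild-type arrays.

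In the prolyl 3-hydroxylase family, P3h4, a member without the catalytic domain that acts in a complex for lysine hydroxylation of collagen, gave 7.61 and 7.24 on the wild-type arrays and 4.37 and 4.10 on the knockout arrays. All 4 values lay above the array medians, and the groups were far apart, with a log2 difference of -3.19 ± 0.27 (SE), 8.60 times the gap between the 2 wild-type arrays. P3h1, the collagen prolyl 3-hydroxylase that pairs with Crtap, lay near the array medians at 3.76 and 3.51 against 3.61 and 3.37, and its groups overlapped. The second P3h1 probe set gave 3.53 and 3.36 against 3.26 and 3.29. The difference was -0.15 by the brighter and -0.17 by the dimmer probe set. P3h2 and P3h3, the other enzymes of the family, differed by 0.03 and -0.27 (limma, adjusted p = 1.00 and 0.974). P3h3, a partner of P3h4 in its complex, gave 4.18 and 4.43 on the wild-type arrays and 3.56 and 4.50 on the knockout arrays, with knockout 1 the only low array.

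The lysyl hydroxylases showed small differences. Plod1, the enzyme that works with P3h4 and P3h3 on helical lysines, gave 3.82 and 3.65 on the wild-type and 3.46 and 3.34 on the knockout arrays. The wild-type values lay just above and the knockout values just below the array medians, with a difference of -0.33 ± 0.14 (SE). The second Plod1 probe set overlapped, at 3.07 and 3.21 against 2.97 and 3.31. Plod2, which hydroxylates the telopeptides that carry cross-links, gave 6.33 and 6.04 against 6.86 and 6.28 by its brighter probe set. Its dimmer probe set gave 4.71 and 4.55 against 5.14 and 4.38. By both probe sets knockout 1 was the highest array and the groups overlapped. Plod3, which also has glycosyltransferase activity, gave 5.15 and 5.09 against 5.26 and 5.44, without overlap, with a difference of 0.23 ± 0.23 (SE). In all, the groups of 4 of the 7 genes did not overlap (P4ha2 and Plod3 higher, P3h4 and Plod1 lower on the arrays labelled as knockout), beside 34.5% of all genes.

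**Figure D1:**
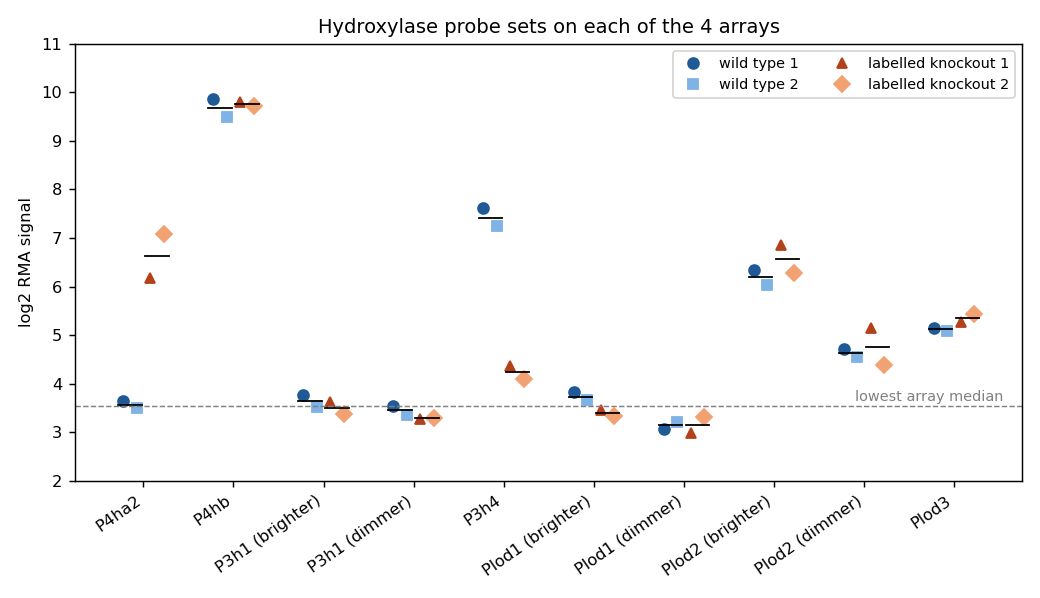
Log2 RMA signal (vertical axis) of the 10 hydroxylase probe sets on the 4 arrays; symbols are single arrays, black bars the means of the 2 arrays of a label, and the dashed line the lowest array median. P4ha2 stood at 3.63 and 3.49 on the wild-type arrays against 6.17 and 7.09, and P3h4 at 7.61 and 7.24 against 4.37 and 4.10, while the other probe sets lay close together.

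**Figure D2:**
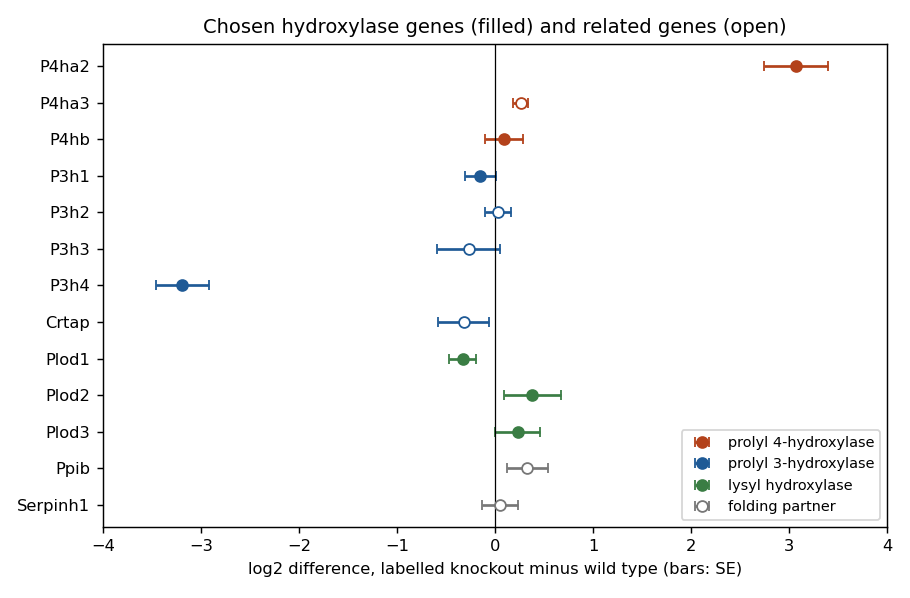
Log2 difference between labels (horizontal axis, knockout minus wild type, n = 2 arrays per label) with its SE for the 7 measured genes of the set (filled) and 6 related genes (open), coloured by role. P4ha2 lay at 3.07 and P3h4 at -3.19, and the others between -0.33 and 0.38.

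The genes that sit beside P4ha2 and P3h4 on chromosome 11 were examined next, in the gene order of the RefSeq table (GRCm38.p6). Pdlim4, a PDZ and LIM domain protein gene directly next to P4ha2 on the opposite strand, gave 4.16 and 3.93 on the wild-type arrays and 10.52 and 10.81 on the knockout arrays. It rose 98.3-fold, a log2 difference of 6.62 ± 0.24 (SE; limma, adjusted p = 0.000109). The other 3 measured genes among the 10 around P4ha2, Slc22a4, Slc22a21 and 4933405E24Rik, differed by between -0.05 and 0.10 and were below the array medians. Irf1, an interferon-induced factor gene farther out on the Pdlim4 side, differed by 1.12 and was not called (limma, adjusted p = 0.0794).

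Beside P3h4, Jup, which encodes the junction protein plakoglobin and is separated from P3h4 by 1 unmeasured gene model, gave 7.53 and 6.86 on the wild-type arrays and 5.20 and 5.04 on the knockout arrays. It fell by 2.08 on the log2 scale, with an SE of 0.30 (limma, adjusted p = 0.0251), which did not pass when wild-type replicate 1 was left out (0.123) or when the prior variance had no intensity trend (0.0594). Nt5c3b, the nearest measured gene on the Fkbp10 side, gave 9.04 and 9.09 against 8.40 and 8.36, a difference of -0.68 that was not called (adjusted p = 0.222). The other 5 measured neighbours of P3h4 differed by between -0.16 and 0.18. Fkbp10, a collagen chaperone gene that lies directly beside P3h4, had no probe set of its own name and is not analysed here. Over the 8 genes of the set, 48 neighbours within 5 positions were measured and 2 (4.17%) were called, Pdlim4 and Jup, beside 1.11% of all genes. None of the 37 around the other 6 genes was called within that window (limma). Counted as 5 measured genes on each side, which reaches farther, 2 more genes rose, Septin10 on the P4ha1 side by 2.62 ± 0.24 (SE; limma, adjusted p = 0.00387) and Dipk2a near Plod2 by 1.57 ± 0.19 (0.0138). Pdlim4 was known as a strongly raised gene when the set was chosen, and its neighbourhood was looked at after the values were seen.

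**Figure D3:**
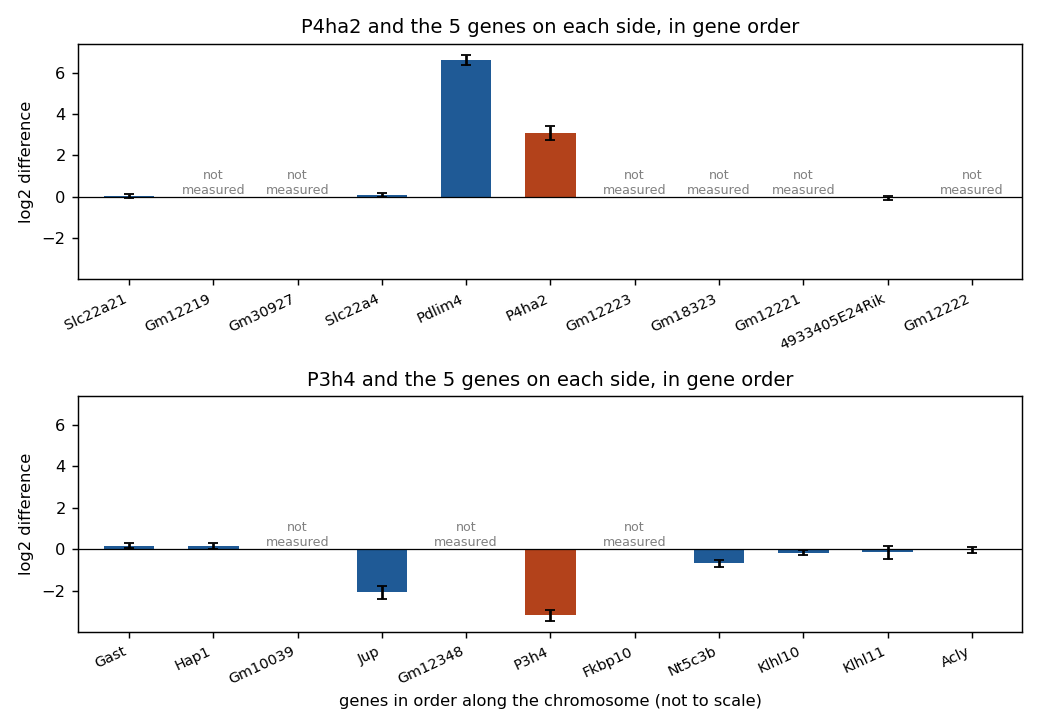
Log2 difference between labels (vertical axis, knockout minus wild type, bars with SE) for P4ha2 and P3h4 (red) and the 5 genes on each side (blue) in chromosomal order, not to scale. Pdlim4 at 6.62 stood beside P4ha2 at 3.07, and Jup at -2.08 beside P3h4 at -3.19; genes without a named probe set are marked as not measured.

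The genes whose pattern over the 4 arrays was nearest to that of P3h4, by the Euclidean distance between log2 values after each gene's mean was subtracted, were Cd44, the hyaluronan receptor (distance 0.270), Insl5, an insulin-like peptide gene (0.453), Sqor, a mitochondrial sulfide oxidoreductase gene (0.850), Fn3k, a protein-deglycating kinase gene (0.938), and Abcb9, a lysosomal peptide transporter gene (0.971). All were lower on both arrays labelled as knockout than on either wild-type array. Genes with clone-type names, such as those ending in Rik, were left out of this ranking. With 4 arrays the measure mostly finds genes with a difference of like size.

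Most genes on lists related to collagen hydroxylation were not called, and with so few arrays this does not show that they were unchanged. Over 11 related lists with 234 distinct measured genes, limma called 6 (2.56%), 5 higher and 1 lower, beside 1.11% of all genes. None of the 8 measured genes of the wider hydroxylase family was called (1 at an unadjusted p under 0.05), with a median of -0.04. None of 22 measured genes of procollagen folding, glycosylation and export was called either (0 at an unadjusted p under 0.05, beside 8.29% of all genes), and their differences lay between -0.42 and 0.45. Ppib, which encodes cyclophilin B, was bright at 10.79 and 10.52 against 11.26 and 10.71 (difference 0.33; adjusted p = 0.839). Crtap differed by -0.32 (adjusted p = 0.930), Serpinh1, the collagen chaperone of the endoplasmic reticulum, by 0.05, Sec24d, a coat subunit of collagen export, by 0.45 and Tmem38b, an ion channel gene of that compartment, by -0.42.

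The substrates themselves gave little signal. Of 37 measured collagen chain genes, 27 were below the median on all 4 arrays and none was called (limma; 1 at an unadjusted p under 0.05). The median difference was 0.03. Col1a1, the main fibrillar chain, gave 2.56 and 2.49 on the wild-type and 2.64 and 2.67 on the knockout arrays. These values were below the lower quartiles, where a fall was not detectable and a small rise may be compressed. The differences farthest from 0 were -0.57 for Col15a1, a basement-membrane zone collagen, and 0.56 for Col27a1, a fibrillar collagen gene that lay above the medians at 5.79 and 5.90 against 6.44 and 6.37 (limma, adjusted p = 0.515 and 0.608).

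Among proteins with collagen-like stretches, Emilin1, an elastic-fibre glycoprotein gene, was the only one of 19 called (limma; 3 at an unadjusted p under 0.05). It fell by 1.67 on the log2 scale, from 6.36 and 6.15 on the wild-type arrays to 4.64 and 4.52 on the knockout arrays (limma, adjusted p = 0.0253). The call was lost without either wild-type array (adjusted p = 0.143 and 0.0915). Emid1, on the same list as Emilin1, went from 7.34 and 6.98 to 6.08 and 5.52. This difference of -1.36 was not called (limma, adjusted p = 0.118). Differences were above 0 for 10 of the 19. Of 18 measured genes that process or turn over collagen outside the cell only Timp2, an inhibitor of matrix metalloproteinases, was called (1 at an unadjusted p under 0.05). It rose from 9.07 and 8.59 to 10.48 and 10.17, a difference of 1.5 ± 0.22 (SE; limma, adjusted p = 0.0271), and the call was lost without wild-type replicate 2 (0.115), without the intensity trend (0.0928) and with the mean of its probe sets (0.159).

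P4hb also belongs to the disulfide isomerases. None of 23 measured isomerases and chaperones of the endoplasmic reticulum was called (limma; 3 at an unadjusted p under 0.05), with a median of 0.04. The largest differences were 0.81 for Prdx4, a peroxiredoxin that feeds oxidising equivalents to P4hb, and 0.76 for Pdia4 (adjusted p = 0.3 and 0.268). Hspa5, the chaperone BiP, differed by 0.59 (adjusted p = 0.297). Of 23 measured genes of the unfolded protein response, 2 rose and 21 were not called, with a median of 0.10. At an unadjusted limma p under 0.05 there were 6, beside 8.29% of all genes. Differences were above 0 for 16 of the 23. Ern1 went from 7.02 and 6.90 to 8.20 and 8.03, a difference of 1.15 that was not called (limma, adjusted p = 0.0774). Atf6, a stress sensor and transcription factor of the endoplasmic reticulum, rose 12.4-fold from 5.08 and 4.62 to 8.51 and 8.47 (limma, adjusted p = 0.00144). Its second probe set, at 5.14 and 4.11 against 8.44 and 8.04, gave a difference of 3.61. Wfs1, a membrane protein gene of the same compartment, rose 17.9-fold from 3.69 and 3.18 to 7.71 and 7.49 (adjusted p = 0.00103). Both calls held under all 10 alternatives.

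P4ha2, P4ha1, Plod1 and Plod2 are known targets of hypoxia-inducible factors. Of 27 other measured hypoxia-induced genes and their regulators only Epas1, which encodes HIF-2 alpha, was called (1 at an unadjusted p under 0.05), and the median was 0.01. Epas1 rose from 4.85 and 5.20 to 7.06 and 6.88, a difference of 1.94 ± 0.26 (SE; limma, adjusted p = 0.0185). The call was lost without wild-type replicate 1 or 2 (0.123 and 0.0640) and with the mean of its probe sets (0.0558), and its dimmer probe set differed by 0.27. Among enzymes that share the cofactors of the hydroxylases, none of 32 measured 2-oxoglutarate oxygenases of other substrates was called (limma; 2 at an unadjusted p under 0.05). Phyh, phytanoyl-CoA hydroxylase, differed by 1.5 and Tet2, a DNA hydroxylase, by 0.76 (adjusted p = 0.0670 and 0.297).

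For the supply of ascorbate, 2-oxoglutarate and iron, none of 13 measured genes was called (limma; 2 at an unadjusted p under 0.05). Tfrc, the transferrin receptor, differed by 1.17 and Gsto1, a glutathione transferase, by -0.97 (adjusted p = 0.0563 and 0.286). Of 18 measured genes of the TGF-beta pathway, a well-known inducer of collagen synthesis, 5 had an unadjusted limma p under 0.05, beside 8.29% of all genes. Differences were above 0 for 11 of the 18. Smad3 and Tgif1 differed by 0.92 and 0.96 and were not called (limma, adjusted p = 0.105 and 0.169). Only Tgfbr3, the co-receptor betaglycan, was called (limma). It rose from 8.04 and 7.93 to 9.38 and 9.65, a difference of 1.53 with an SE of 0.20 (limma, adjusted p = 0.0160). The call was lost without either wild-type array and with the mean of its probe sets (limma, adjusted p = 0.112). The dimmer Tgfbr3 probe set differed by 0.39.

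**Figure D4:**
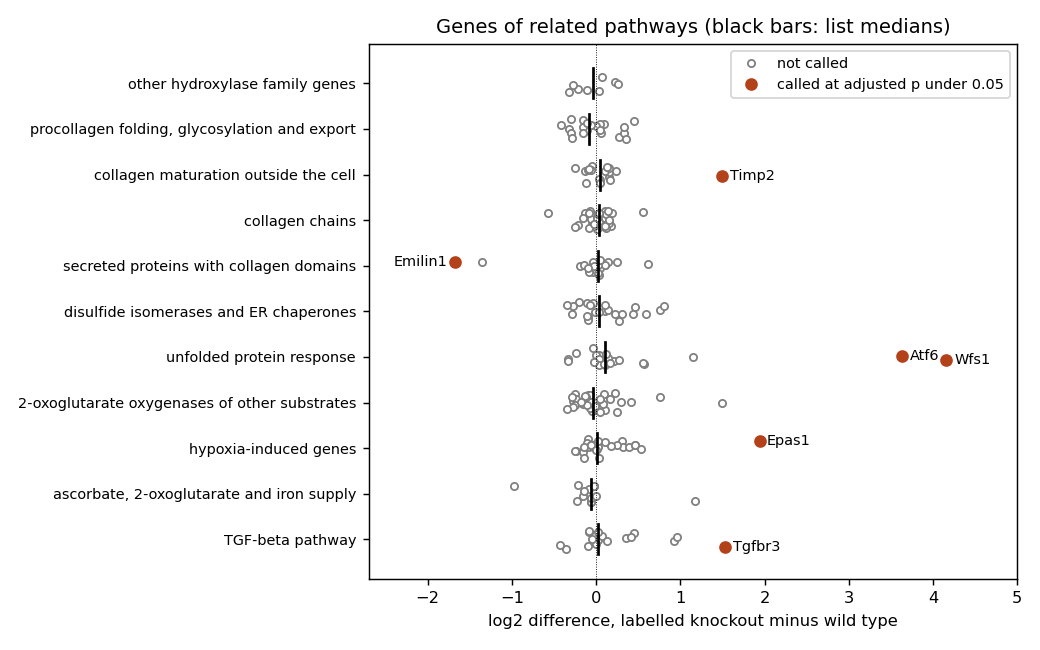
Log2 difference between labels (horizontal axis, knockout minus wild type) of each measured gene on 11 lists related to collagen hydroxylation; filled points passed an adjusted p of 0.05 in limma over all genes, and black bars are list medians. Most points lay near 0. Timp2, Atf6, Wfs1, Epas1 and Tgfbr3 were called higher and Emilin1 lower. Some uncalled points also lay away from 0, such as Phyh at 1.5 and Emid1 at -1.36.

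The levels of marker genes of further cell types were set beside these values. Of 16 measured fibroblast and mesenchyme markers, 13 were below the median on all arrays and none was called (limma; 2 at an unadjusted p under 0.05). Their summed linear signal was 6555 and 6135 on the wild-type and 6684 and 6772 on the knockout arrays, carried by Thy1 and Vim, which thymocytes also express. Dcn, decorin, a defining fibroblast gene, gave 2.95 and 2.88 against 2.69 and 2.70, below the lower quartiles. Of 18 thymic epithelial and endothelial markers none was called (3 at an unadjusted p under 0.05), and their summed signal was 643 and 501 against 1239 and 868. The higher sum on the knockout arrays lay mostly in Epcam and Cldn4. Epcam gave 6.89 and 6.06 against 8.63 and 7.69 and Cldn4 7.91 and 7.12 against 9.05 and 8.50 (limma, adjusted p = 0.163 and 0.204). Krt8, Foxn1 and Krt5 differed by -0.30, 0.10 and -0.09. Differences were above 0 for 10 of the 18, and 12 of the 18 lay below the medians throughout.

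The summed signal of 15 myeloid and dendritic markers was 219 and 176 against 1563 and 1202, with only Ctss, the cathepsin S gene, called (higher; limma, adjusted p = 0.000906), and 8 of the 15 below the medians on all arrays. Without Ctss the sum was 157 and 135 against 157 and 158. Of 15 markers of gamma-delta, NK and innate lymphoid cells 4 rose (limma; Il18r1, Cd163l1, Maf and Gzma), beside 0.942% of all genes called higher. At an unadjusted limma p under 0.05 there were 7, beside 8.29% of all genes. This list was chosen with earlier results of these data known, so these shares are not read as a test. The summed signal was 1286 and 1139 against 6893 and 6631. Without the 4 called genes the sum was 305 and 293 against 330 and 259. Sox13, Zbtb16, Tbx21, Eomes and Ncr1 of this list differed by between -0.05 and 0.10. Blk and Nkg7, also not called, differed by 1.24 and 0.99. No gene was called among 10 B cell and plasma cell markers (limma; 1 at an unadjusted p under 0.05), summing to 405 and 351 against 277 and 275, or among 10 erythroid and platelet markers (1), summing to 607 and 1428 against 608 and 1530. The lower B cell sum lay in Cd79b (8.26 and 7.88 against 7.41 and 6.28), while Jchain gave 4.42 and 5.31 against 4.71 and 6.88. Hba-a1 varied within each label (7.35 and 10.17 against 8.72 and 10.45), and Car2 was lower on the knockout arrays (8.51 and 7.66 against 6.74 and 5.69). Of the double-positive markers only Dntt was called, lower by 1.61-fold (limma, adjusted p = 0.0413). Dropping the trend from the prior variance removed the call (limma, adjusted p = 0.149). Dntt has 1 probe set, so averaging probe sets, which alters other genes, kept its difference at -0.69. In that limma fit its adjusted p was 0.0815, and Dntt was not called. It was also not called when wild-type replicate 1 or 2 was left out, with differences of -0.77 and -0.61. The part of these marker differences in the values of P4ha2 and P3h4 was not tested.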

How the data were processed

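Biotin-labelled RNA of the 4 samples was hybridised to 1 array each. Per the submitters' processing notes the authors used RMA and Affymetrix Expression Console 1.1. From their range and nearly equal quartiles, the deposited values are on the log2 scale of RMA, and they were used without further normalization. RMA compresses differences at both ends of its range. No detection calls were used, so background could not be judged per probe set.

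Probe sets were named from the platform annotation. Of 45037 probe sets 28898 had 1 gene name, 551 several and 15588 none. Each gene was represented by its brightest single-name probe set. The comparison between labels used limma 3.58.1 (R 4.3.3; lmFit, eBayes) with an intensity trend and Benjamini-Hochberg adjustment, two-sided, over 17097 genes, and again over all probe sets (345 of 45037, 0.766%, called). The script was tested on simulated data. Errors are SD or SE with n = 2 arrays per label. The 10 alternatives were a replicate block, 2 normalizations, a filter on dim probe sets, no intensity trend, the mean of a gene's probe sets and leaving out each array. Lists matched 5 entries through older symbols.

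The genes of the set and all lists were chosen with earlier results of these data known. Named were all genes of the set, fixed partners, and per list up to 3 called genes with the largest change or 2 where none was called. Irf1, Nt5c3b, Col1a1, Hspa5, Ern1, Emid1, Smad3, Tgif1, Gzma, Cd8a, Thy1 and the neighbours of genes other than P3h4 were chosen after their values were seen. So were Krt8, Foxn1, Krt5 and the uncalled genes named from the innate lymphoid list. Python 3.11.15 and matplotlib 3.10.9 drew the figures.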

Additional observations from a re-analysis of the deposited data

How the results depend on the processing

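The log2 differences of P3h4 and P4ha2 kept their sign under all 10 alternatives, from -3.37 to -3.00 and from 2.61 to 3.53. The differences of the 7 hydroxylase genes moved by less than the spread between replicates under the 8 alternatives run for them, except that of Plod1 with the mean of its probe sets (-0.17). With the replicate block 183 genes and 272 probe sets were called instead of 190 and 345. Replicate numbers are shared by the labels without a stated meaning; the deviations of same-numbered arrays from their group means correlated at 0.301 across 17097 genes, which is no proof of pairing with 2 pairs. Leaving out 1 array gave 103 to 475 genes and 168 to 368 probe sets, and each such fit assumes that the lone array varies like the other label. Without the intensity trend 205 probe sets were called.

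The number of called genes on the lists changed as follows. It fell from 1 to 0 for collagen maturation without the intensity trend and with the mean of probe sets, and for the hypoxia and TGF-beta lists with the mean of probe sets. For ascorbate and iron supply it was 1 instead of 0 after a second quantile normalization and with the dimmest 30% of probe sets left out. When 1 array was left out it ranged from 0 to 1 for collagen maturation, hypoxia, ascorbate and iron supply and 2-oxoglutarate oxygenases, and from 0 to 2 for proteins with collagen domains and the TGF-beta list. The counts of the other 5 lists stayed within 1.5 times under all 10 alternatives.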
